A study of Mus musculus with 12 samples.

Results

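Dorsal cerebral cortex of adult Kat6b mutant mice was compared with dorsal telencephalon of Kat6b mutant embryos at E12.5, to describe which parts of the embryo-to-adult change of the transcriptome proceeded without normal Kat6b. The members were 6 of the 12 Affymetrix arrays of the series, chosen by their titles: 3 of adult mutants and 3 of mutant embryos. All mice were 129/Sv, and the mutants were homozygous for the gene-trap allele Qkf gt (Qkf gt/gt), Qkf being another name of Kat6b. The adult mutants were males of 155, 112 and 99 days, here adult mutants 1, 2 and 3. Mutant embryo 1 came from a first cross and mutant embryos 2 and 3 from a second, and the labels do not say how many embryos went on an array or of which sex they were. The other 6 arrays, 3 of adult male wild types of 155, 112 and 101 days and 3 of wild-type embryos with 1 from the first cross and 2 from the second, served only to show where the mutants differed. Of 45101 probe sets, 23101 had a log2 value over 4 on at least 3 of the 6 mutant arrays and were tested. Of these, 19747 carried 1 gene symbol and stood for 11271 genes, each represented by its probe set with the highest mean over the mutant arrays.

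Kat6b encodes a histone acetyltransferase of the MYST family that works in a complex with a BRPF scaffold, ING5 and MEAF6, and the dorsal telencephalon is a site of high Kat6b expression in the embryo. At E12.5 the wall of the dorsal telencephalon consists mainly of dividing radial glia and the first intermediate progenitors and neurons. The adult cortex holds neurons connected by synapses, together with astrocytes, myelinating oligodendrocytes, microglia and vessels. In bulk tissue of this kind, fewer cells of a type and less RNA per cell cannot be told apart.

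Markers of the labelled tissues and of neighbouring ones were read first. All 5 neuronal and all 5 interneuron markers lay over 4 on every adult mutant array, and all 5 progenitor markers lay over 4 on every mutant embryo array. Markers of midbrain and hindbrain (En1, En2, Hoxa2 and Hoxb2) were between 2.19 and 2.34 on every mutant array, 2.19 being the lowest value an array could take. Between 28.7% and 29.8% of the values of a mutant array stood at that floor, so differences against it understate the change. Correlations over all probe sets were at least 0.994 among adult mutants and at least 0.989 among mutant embryos. The 3′ minus 5′ signal of the actin control probe sets, a sign of RNA integrity, was 1.91, 1.47 and 1.09 in the adult mutants and 0.729, 0.803 and 0.78 in the mutant embryos. In the adult wild types it was 1.13, 1.13 and 1.06, so adult mutants 1 and 2 stood above all adult wild types and adult mutant 3 among them. It thus moved with stage and in part with genotype, and its part in the results was not tested. The array set, as coded in the descriptions of the samples, was the same for all adults, another for 5 embryos and a further one for mutant embryo 1, so array set and stage cannot be told apart. The 4 markers of tissue outside the brain averaged 4.42 to 4.60 in adult mutants and 3.66 to 3.87 in mutant embryos. Adult mutants 1 to 3 and mutant embryos 1 and 2 expressed Y-linked Eif2s3y (8.39 to 9.43), whereas mutant embryo 3 stood at 2.19 for it and at 12.7 for Xist. The wild-type embryos stood at 2.19, 2.19 and 9.37 for Eif2s3y and at 13.12, 13.14 and 2.19 for Xist. The mix of sexes thus differed between mutant and wild-type embryos, while all adults were male. The part of sex in the differences between genotypes was not tested.

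Most of the transcriptome differed between the stages in the mutants. In limma's test, 18276 of 23101 probe sets (79.1%) were called at an adjusted p under 0.05, of which 8336 were higher and 9940 lower in the adult. Of the 11271 genes, 4465 (39.6%) were called higher and 4720 (41.9%) lower, and 9293 (82.5%) had 3 adult mutant values that did not overlap with the 3 embryonic ones. The change was at least 2-fold for 3181 genes called higher and 3106 called lower. It was at least 16-fold for 825 genes called higher and 421 called lower. In the wild types, on the same genes, 4329 (38.4%) were called higher and 4805 (42.6%) lower. The shares above are the background against which the lists of genes below are to be read. The p-values measure the spread between these samples, 3 a group, whose number limits the precision.

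The changes were then set side by side in the 2 genotypes. Across genes, which are not independent replicates, the mutant and wild-type changes correlated with Pearson's r = 0.993 and Spearman's rho = 0.989, and the 2 contrasts shared no array. They were called in both genotypes for 8647 genes, which is 94.1% of the mutant calls and 94.7% of the wild-type calls, and in opposite directions for 3 of these. Among the 3436 genes that changed by at least 2 on the log2 scale in the wild types, the mutant change was a median of 1.00 times the wild-type change, with quartiles of 0.944 and 1.06. The ratio was under 0.5 for 2 genes and over 1.5 for 3.

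**Figure D1:**
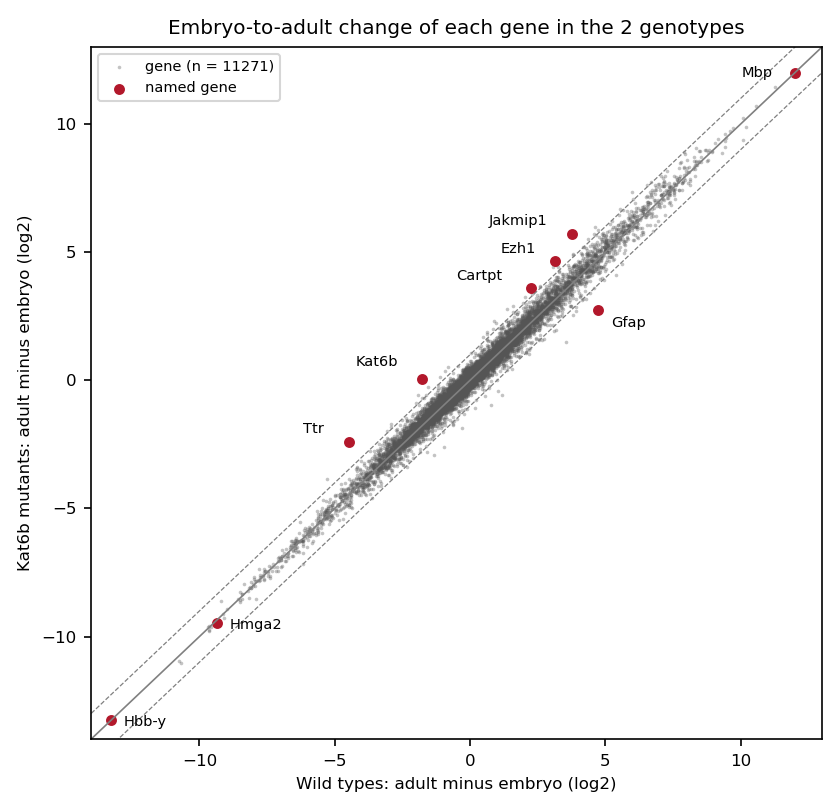
Adult minus embryo difference on the log2 scale of 11271 genes in wild types (x axis) and in Kat6b mutants (y axis); the solid line marks equal changes and the dashed lines a difference of 1 between genotypes. Genes lie along the line from Hbb-y at -13.26 to Mbp at 11.98 in the mutants, and red points are named genes, among them Kat6b, Ezh1, Jakmip1, Cartpt, Ttr and Gfap away from it.

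Kat6b itself was read by 3 probe sets, of which 1 passed the filter. That probe set stood at 7.25, 7.17 and 6.92 in the adult mutants and at 6.22, 7.24 and 7.72 in the mutant embryos, so the 2 mutant groups overlapped. In the wild types it stood at 9.68, 9.35 and 9.72 in adults and 11.28, 11.40 and 11.42 in embryos, above every mutant array at either stage. The change was 0.06 in the mutants (SE 0.30, adjusted p = 0.866) and -1.78 in the wild types, where the gene fell. The difference of these changes was 1.84 with a 95% interval of 0.92 to 2.76 and did not pass the test over all probe sets (adjusted p = 0.55). A second probe set was at 2.19 to 2.21 on all mutant arrays and thus failed the filter, while wild-type embryos held 4.80, 5.24 and 5.03. It was over 4 on those 3 arrays alone, with wild-type adults at 2.24, 2.66 and 2.87, so a filter over all 12 arrays keeps it only through the group where it is high and its difference is given no test. The third was at the floor on all 12 arrays. In all, 748 probe sets passed a filter over the 12 arrays and not the one over the mutants, and these are the ones a mutant-only filter cannot see.

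Genes of the embryonic progenitor zone were lower in the adult mutants. Of 21 measured radial glia genes, 17 fell and 2 rose, with a median change of -3.38 against -3.50 in the wild types and -0.04 over all genes. Pax6, a transcription factor that sets the dorsal progenitor state, stood at 10.13, 10.14 and 10.59 in the mutant embryos and at 3.73, 3.96 and 3.91 in the adult mutants. The stages did not overlap, and the change was -6.42 (SE 0.15, adjusted p = 1.08e-11). The intermediate filament gene Nes was at 8.91, 8.98 and 9.41 in embryos and at 2.23, 2.23 and 2.23 in adults, a change of -6.87. Vim, a second intermediate filament gene of radial glia, went from 14.66, 14.58 and 14.43 to 9.49, 9.75 and 9.95, which is a 28.3-fold drop to a level still above the floor. Hmga2, a chromatin protein of early neural stem cells, was at 12.45, 11.16 and 11.35 in embryos, highest in the one from the first cross, and at 2.19 in all 3 adults. The 2 members that rose were Slc1a3, the glutamate transporter that astrocytes keep (3.02), and Hopx (0.86), the latter chosen after its values were seen.

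Intermediate progenitor genes fell in 13 of 15 cases and none rose (median -4.47, wild types -4.12). The proneural factor Neurog2 was at 11.17, 11.96 and 12.18 in mutant embryos and at 2.19 in every adult mutant. Eomes, the transcription factor that marks these cells, was at 10.64, 11.40 and 11.43 and then at 2.21 to 2.22 in adults, a change of -8.94 (SE 0.25, adjusted p = 4.66e-11). Both genes were lowest in the mutant embryo of the first cross. All 12 measured genes of regional patterning fell (median -3.66, wild types -3.33), from -0.59 for Tcf4 to -7.28 for Dmrta1. The call of Tcf4 was lost without mutant embryo 2 (-0.511, adjusted p = 0.0602). Emx1 stood at 7.50, 7.68 and 8.11 in embryos and 4.94, 5.39 and 5.49 in adults, and Otx1 at 8.34, 8.40 and 8.32 and 2.86, 2.58 and 2.25, both without overlap.

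**Figure D2:**
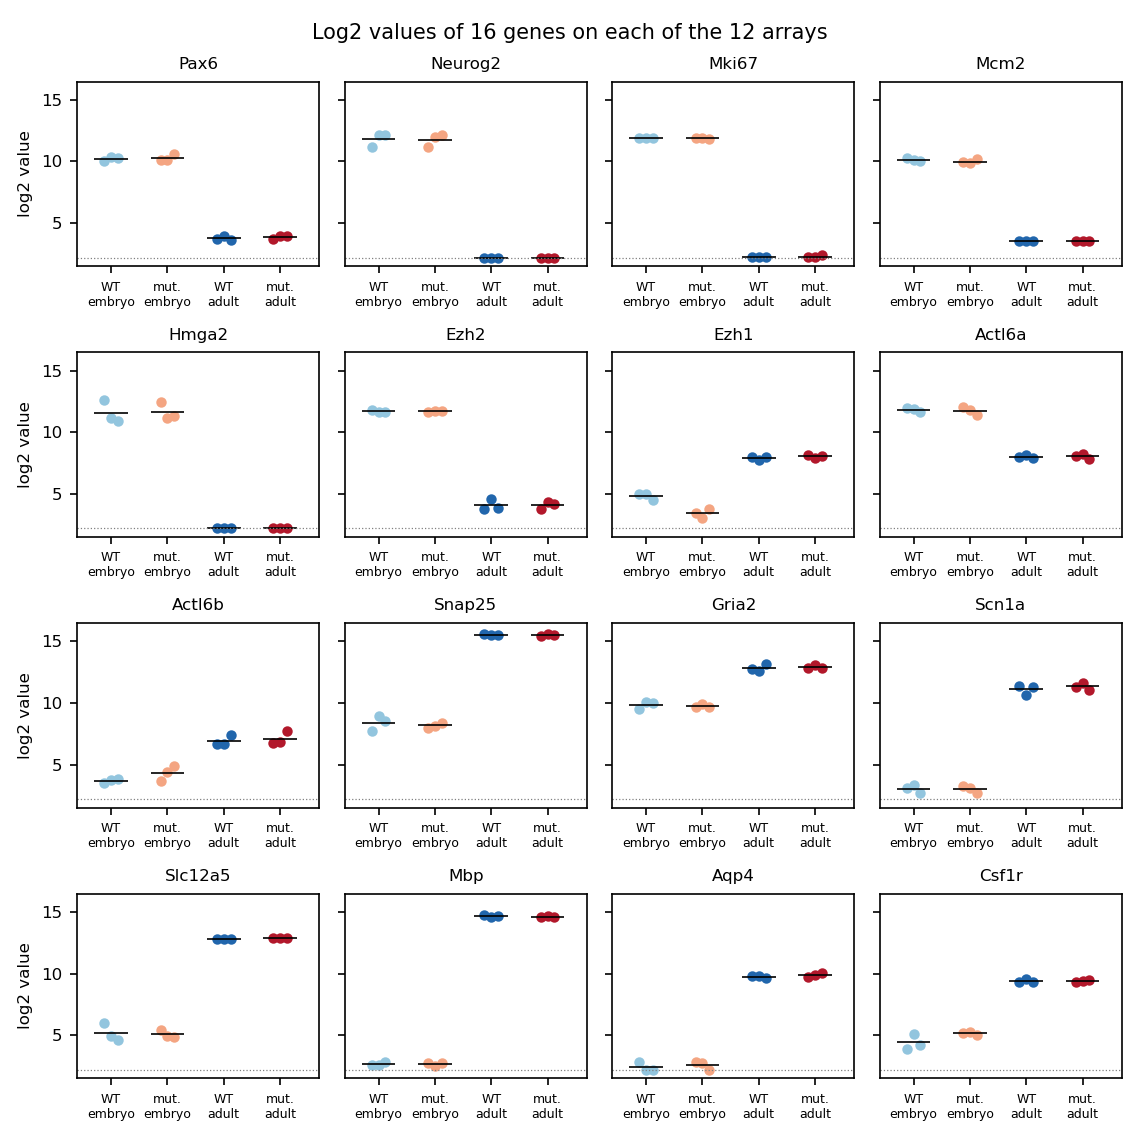
Log2 values (y axis) of 16 genes on each of the 12 arrays, by genotype and stage; points are arrays, horizontal bars are means of 3 arrays and the dotted line is the floor of 2.19. Progenitor and cell cycle genes are high in embryos of both genotypes and low in adults, synaptic and glial genes the reverse, and Ezh1 is the one panel in which mutant embryos (3.07 to 3.72) lie below all wild-type embryos.

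Genes of DNA replication and mitosis fell in the mutants wherever they were measured. All 33 measured genes of DNA replication (median -5.51, wild types -5.60) and all 39 of mitosis (median -7.43, wild types -7.11) were called lower in the adult mutants, beside 41.9% of all genes. Mcm2 and Mcm3, subunits of the helicase that opens origins of replication, stood at 9.95, 9.85 and 10.16 and at 10.65, 10.73 and 11.06 in the mutant embryos. In the adults Mcm2 was at 3.52 on all 3 arrays and Mcm3 at 3.04, 2.89 and 3.60. Rrm2, the small subunit of ribonucleotide reductase, changed by -9.63 (SE 0.15, adjusted p = 5.91e-13). Ube2c, which loads ubiquitin for the anaphase-promoting complex, stood at 12.13, 12.05 and 12.25 and then at 2.26, 2.38 and 2.52. Top2a, topoisomerase II of dividing cells, was at 11.94, 11.97 and 11.93 in embryos and at 2.19 in all adult mutants. The proliferation antigen Mki67 and the mitotic kinase Cdk1 changed by -9.63 and -9.26. The member of the mitosis list with the smallest fall was Incenp, a subunit of the chromosomal passenger complex (11.70 to 11.90 in embryos, 8.74 to 9.27 in adults). Of 24 genes that control entry into the cycle, 21 fell, among them the D cyclins Ccnd1 (-2.76), Ccnd2 (-4.86) and Ccnd3 (-2.59). The kinase inhibitor Cdkn2d rose by 0.72, one of 2 members to do so.

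Because the replication and mitosis genes moved together, their promoters were searched for the short elements known in cell cycle promoters. RefSeq windows of GRCm38.p6, reaching from 250 bases before a start site to 50 after it, were matched by gene ID for 9143 of the 11271 genes (11870 windows), 27 of 33 replication genes (32 windows) and 32 of 39 mitosis genes (34 windows). The E2F octamers searched on both strands were TTTCCCGC, TTTCGCGC, TTTGCCGC and TTTGGCGC, and the cell cycle homology region (CHR) was searched as TTTGAA. E2F octamers were in 40.6% of the replication windows and 5.88% of the mitosis windows, against 3.97% of all windows. The CHR letters were in 76.5% of the mitosis windows and in 4 of the 32 replication windows, against 11.5% of all. CCAAT was in 79.4% of the mitosis and 59.4% of the replication windows and in 37.8% of all. In choosing windows to show, the genes of a single chromosome were passed over and the first matching window of a gene was taken. For each list, the windows of the 2 members with the largest falls that hold its element are shown 5′ to 3′ on the gene's strand, with E2F octamers in capitals for Mcm6 and Uhrf1 and CHR letters in capitals for Ube2c and Top2a, on either strand, so that TTCAAA marks CHR letters on the other strand and one longer run in Mcm6 holds octamers of both strands.
Mcm6 (chr1:128359656-128359955, minus strand): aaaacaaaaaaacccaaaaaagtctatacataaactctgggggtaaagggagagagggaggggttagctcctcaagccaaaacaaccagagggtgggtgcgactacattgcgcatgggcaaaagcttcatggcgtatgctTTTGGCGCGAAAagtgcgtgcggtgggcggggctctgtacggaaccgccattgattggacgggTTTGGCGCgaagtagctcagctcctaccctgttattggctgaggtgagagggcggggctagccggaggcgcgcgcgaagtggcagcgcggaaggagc
Uhrf1 (chr17:56304063-56304362, plus strand): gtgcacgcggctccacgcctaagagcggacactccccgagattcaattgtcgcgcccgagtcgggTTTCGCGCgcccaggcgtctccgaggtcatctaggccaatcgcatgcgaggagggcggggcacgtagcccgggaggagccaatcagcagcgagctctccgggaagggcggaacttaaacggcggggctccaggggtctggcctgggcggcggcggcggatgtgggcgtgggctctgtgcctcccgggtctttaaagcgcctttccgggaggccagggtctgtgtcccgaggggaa
Ube2c (chr2:164769679-164769978, plus strand): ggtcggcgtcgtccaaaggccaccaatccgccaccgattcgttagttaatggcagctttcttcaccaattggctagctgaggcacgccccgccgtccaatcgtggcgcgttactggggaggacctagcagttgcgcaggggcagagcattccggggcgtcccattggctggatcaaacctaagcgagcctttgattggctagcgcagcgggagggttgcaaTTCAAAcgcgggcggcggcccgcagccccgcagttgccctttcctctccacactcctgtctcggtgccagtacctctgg
Top2a (chr11:99024140-99024439, minus strand): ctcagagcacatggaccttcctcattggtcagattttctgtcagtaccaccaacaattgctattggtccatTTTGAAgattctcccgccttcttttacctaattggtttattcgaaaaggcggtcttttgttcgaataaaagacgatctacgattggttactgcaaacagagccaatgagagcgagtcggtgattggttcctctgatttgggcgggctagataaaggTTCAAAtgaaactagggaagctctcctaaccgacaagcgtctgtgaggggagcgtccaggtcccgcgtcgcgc
The genes of these windows changed by -8.62 (Mcm6, wild types -9.20), -8.03 (Uhrf1, wild types -8.02), -9.77 (Ube2c, wild types -9.65) and -9.76 (Top2a, wild types -9.66). Windows with an observed over expected CpG ratio above 0.6 made up 94.1% of the mitosis windows and 78.1% of the replication windows. Among genes that rose, the share was 47.2% for synaptic vesicle genes (24 of 29 matched), 39.6% for ion channels (29 of 36) and 25.0% for astrocyte genes (17 of 20), against 70.7% of all windows. The RE1 half-site, searched as TTCAGCACC on both strands, was in 2 of 36 synaptic vesicle windows (5.56%) and 0.413% of all. It was in 0 of 48 ion channel, 0 of 15 GABA receptor and 0 of 20 astrocyte windows. The search was void for glutamate receptor, myelin and respiratory chain genes and for all genes that rose by at least 2 on the log2 scale, where fewer than 80% were matched (for the last, 1534 of 1977). The matches describe letters in a window and no factor's binding was measured.

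Genes of newborn and layer neurons moved in both directions. Of 16 genes of young neurons, 10 fell and 3 rose. Dcx, the doublecortin of migrating neurons, changed from 11.00, 10.93 and 10.76 to 8.01, 7.79 and 8.11 (-2.92, adjusted p = 3.35e-08). Sox4 fell by 4.04 and Cd24a by 6.74 on the log2 scale, while Tubb3, the neuronal tubulin, fell by no more than 0.90. Deep layer genes were as often higher as lower (5 and 5 of 13, 38.5% each), near the shares of all genes (39.6% and 41.9%). The corticospinal factors Fezf2 (-2.39) and Bcl11b (-0.93) fell, and Tbr1 stood at 10.69, 10.58 and 10.61 in embryos and 10.72, 10.77 and 10.23 in adults, which overlapped. Hs3st4, a heparan sulphate sulphotransferase of deep layer neurons, rose from 2.49, 2.35 and 3.01 to 9.22, 9.28 and 9.32. Of 13 upper layer genes, 9 rose and 3 fell (median 4.03, wild types 3.84). Rorb, the receptor of layer IV, stood at 10.95, 11.16 and 10.70 in adults and stood at 6.32, 5.51 and 4.23 in the mutant embryos. Cajal-Retzius genes, those of the earliest marginal zone neurons, fell in 7 of 11 cases and rose in 1 (median -2.91, wild types -3.29). Cux2 rose by 2.33 and Cux1 fell by 0.71 on the log2 scale.

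Genes of synaptic transmission rose in nearly all cases. Of 29 measured synaptic vesicle genes, 28 were called higher (median 5.48, wild types 5.20), beside 39.6% of all genes. Snap25, a SNARE protein of vesicle fusion, stood at 7.98, 8.15 and 8.38 in mutant embryos and at 15.44, 15.57 and 15.52 in adult mutants, a 162-fold rise (log2 7.34, SE 0.25, adjusted p = 1.95e-10). The calcium sensor Syt1 rose from 6.53, 5.98 and 5.62 to 13.70, 13.56 and 13.61, and the vesicle protein Syp from 7.15, 7.50 and 8.04 to 13.18, 12.95 and 13.14. The one member that fell was Slc17a6, the vesicular glutamate transporter of embryonic cortex, from 9.76, 10.07 and 9.90 to 9.15, 9.12 and 8.99 (-0.82). Its adult counterpart Slc17a7 rose from 3.91, 4.32 and 4.83 to 11.13, 11.05 and 11.71 on the same arrays and was chosen after its values were seen.

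Receptors rose in the same way. Of 29 genes of glutamate receptors and their scaffolds 28 rose (median 4.11, wild types 3.90). The NMDA receptor subunit Grin2b rose from 2.73, 2.70 and 2.73 to 9.82, 9.79 and 9.43 and the metabotropic receptor Grm3 from 2.38, 2.38 and 2.31 to 11.78, 11.40 and 11.64. Grik2, a kainate receptor subunit, was the member not called, with embryos at 8.91, 9.48 and 9.45 and adults at 9.05, 8.94 and 8.80; without mutant embryo 1 it was called lower (-0.535, adjusted p = 0.0399). Of 12 genes of GABA receptors and the chloride gradient, 11 rose. Slc12a5, the chloride exporter KCC2, rose from 5.39, 4.96 and 4.86 to 12.93, 12.91 and 12.90 (7.85, SE 0.28, adjusted p = 2.99e-10). The importer Slc12a2 stood at 9.90, 9.74 and 9.65 in embryos and 9.93, 9.94 and 9.59 in adults and was not called (0.05, adjusted p = 0.716). The pair of transporters thus diverged in the mutants as in the wild types, where the changes were 7.64 and -0.09.

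All 36 measured voltage-gated and related channels rose (median 5.61, wild types 5.43). The sodium channel Scn1a rose from 3.26, 3.12 and 2.71 to 11.33, 11.65 and 11.06, and Scn2a changed by 7.57. Scn3a, the sodium channel that the embryo already used, rose by 1.38 from 7.92, 7.28 and 7.24. The potassium channel Kcna2 changed by 8.49 and the T-type calcium channel Cacna1g by 1.27. All 22 genes of calcium signalling rose too (median 6.07). The calcium sensor Vsnl1 stood at 2.27, 2.19 and 2.21 in embryos and at 13.65, 13.74 and 13.59 in adults, next to the largest rise of all (11.44, SE 0.18). Camk2a, the kinase of synaptic plasticity, rose by 8.57 and Camk2d, which was already at 6.04 to 6.36 in embryos, by 3.03. Of 15 immediate early genes, which neuronal activity induces, 12 rose and 3 fell. Fos stood at 6.90, 8.37 and 7.97 in adult mutants against 3.42, 3.41 and 3.20 in embryos, and Egr3 rose by 8.90. Jun and Ier2 fell by 1.24 and 2.38 on the log2 scale. Of 17 neuropeptides and modulatory receptors 16 rose and none fell, with Cck at 8.98 and Npy at 6.73.

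Interneuron genes rose against an embryonic level that depended on the array. Of 19 measured members, 15 rose and 1 fell, the latter Sox6 (-2.54). Slc32a1, the vesicular GABA transporter, rose from 3.24, 3.24 and 3.19 to 9.22, 9.08 and 9.08. Gad1, which makes GABA, stood at 7.34, 3.73 and 3.23 in mutant embryos 1, 2 and 3 and at 13.07, 13.12 and 12.63 in adults. The ganglionic eminence factors Dlx1 and Dlx2 stood at 8.62, 3.65 and 3.00 and at 8.43, 3.28 and 3.31 in the same order. The mutant embryo of the first cross was the high one for all 3 genes. So was the wild-type embryo of that cross, for Gad1 (7.86, 5.28 and 3.74), Dlx1 (9.30, 6.14 and 2.92) and Dlx2 (9.04, 5.80 and 3.21). The mean of the 4 eminence markers ran from 2.67 to 5.37 in mutant embryos and from 3.78 to 4.35 in adult mutants, with Gsx2 and Nkx2-1 at or near the floor throughout. Dlx1 (2.25, SE 1.56, adjusted p = 0.206) and Dlx2 (-0.14, adjusted p = 0.939) were not called. Without mutant embryo 1, Dlx1 was called higher in adults (4.01, adjusted p = 0.0182), Dlx2 was not (1.58, adjusted p = 0.292), and the change of Gad1 was 9.46. The count of interneuron genes was then 15 higher and 1 lower, with a median of 5.91. Of 6 measured genes of the ventral telencephalon 4 rose and none fell (median 2.55, wild types 2.12), and the interval of the difference reached beyond -1 to 1 for all of them. Of the 14 on the array, 8 did not pass the filter, among them Isl1 and Dlx5, with highest values on any array of 7.95 and 6.37. A gene over 4 on fewer than 3 mutant arrays cannot pass, so a fall of such a gene is not counted. The part of ventral tissue in these results was not tested.

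Glial genes rose in nearly all cases. All 16 measured myelin genes were higher in adult mutants (median 4.24, wild types 4.34). Mbp, a major protein of myelin, had the largest rise of all genes, from 2.74, 2.50 and 2.74 to 14.63, 14.69 and 14.62 (11.98, SE 0.11, adjusted p = 2.05e-14). Mog and Mag, proteins of the outer and inner myelin surface, stood at 8.14, 8.48 and 8.63 and at 8.62, 9.04 and 8.79 in the adults. Myrf, the transcription factor of myelination, had the smallest rise (0.74). Of 11 genes of oligodendrocyte precursors 10 rose, with Olig1 at 7.52 and Pdgfra, already at 7.42 to 7.50 in embryos, at 1.55; the proteoglycan Vcan fell by 5.65 on the log2 scale. Of 20 astrocyte genes 19 rose. The water channel Aqp4 went from 2.83, 2.76 and 2.19 to 9.70, 9.89 and 10.02 and Aldh1l1 from 3.88, 2.85 and 2.78 to 8.47, 8.22 and 8.38. Fgfr3, shared with progenitors, was the one that fell (-1.62). Gfap, the astrocyte intermediate filament, rose by 2.74 in the mutants (5.22, 5.56 and 4.82 to 7.50, 7.69 and 8.64) and by 4.73 in the wild types (3.95, 2.92 and 2.39 to 7.50, 7.71 and 8.27). The difference was -1.99 (95% interval -3.26 to -0.73) and did not pass the test over all probe sets (adjusted p = 0.752).

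Genes of the other cell types moved with stage as well, and the values of their markers stand beside them. All 11 measured microglial genes rose, with Csf1r, the receptor on which these cells depend, at 5.17, 5.29 and 5.02 in embryos and 9.35, 9.40 and 9.49 in adults. Endothelial and pericyte genes split, 9 of 18 higher and 5 lower. The thyroid hormone and organic anion transporter Slco1c1 of the blood-brain barrier rose by 6.36, while the endothelial cadherin Cdh5 fell by 2.06 on the log2 scale. Of 16 collagen and mesenchyme genes 12 fell, Col3a1 to 2.99, 3.61 and 3.63 in adults (-8.55). The mean of the 4 meningeal markers was 8.17 to 8.66 in mutant embryos and 4.59 to 4.97 in adult mutants. The 3 largest falls of all genes were of embryonic globins, and all 5 measured red cell genes fell, of 10 on the array. The adult globin Hba-a1 was at 2.19 on every array and thus not measured. Hbb-y, the embryonic beta-like globin of primitive red cells, was at 15.49, 15.43 and 15.43 in mutant embryos and at 2.19 in all adult mutants, and Hbb-bh1 and Hba-x changed by -11.02 and -10.96. Genes of the cortical hem and choroid plexus fell in 7 of 10 cases and none rose (median -1.53, wild types -1.84). In the wild types 9 fell and 1 rose, and none was called for the difference. Choroid plexus transcripts varied within a stage. Ttr stood at 8.34, 7.69 and 15.16 in adult mutants, where the third was far above the others, and at 10.78, 13.53 and 14.06 in mutant embryos, and was not called (-2.39, SE 1.76, adjusted p = 0.23). Without adult mutant 3 it was called lower (-4.77, adjusted p = 0.00418). Clic6 had the same high array (2.28, 2.19 and 5.59 in adults) and the mean of the 4 choroid plexus markers was 3.83, 3.64 and 7.22 in the adult mutants. Kl (2.19, 2.19 and 3.95) and Folr1 (2.49, 2.47 and 4.19) were highest on the same array. Of 3 measured muscle and skin genes, Acta1 (3.41) and Myh3 (2.66) rose and Krt5 (-0.48) fell. Of genes of regions outside the telencephalon 1 passed the filter, Lhx9, which fell by 6.64 on the log2 scale.

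Chromatin regulators moved in both directions. Of 10 genes of the second Polycomb repressive complex, 8 fell and 2 rose. The methyltransferase Ezh2 fell from 11.65, 11.70 and 11.73 to 3.72, 4.35 and 4.17 (-7.61, SE 0.22, adjusted p = 5.94e-11), against -7.65 in the wild types (95% interval of the difference -0.65 to 0.72). Its paralogue Ezh1 rose from 3.40, 3.07 and 3.72 to 8.14, 7.92 and 8.10. Of 17 genes of the BAF remodelling complex 10 fell and 4 rose. Actl6a, the progenitor subunit, fell by 3.68 on the log2 scale and Actl6b, the neuronal one, rose by 2.77. Of 10 genes of DNA methylation 7 fell and 1 rose, against 9 and 1 in the wild types, with none called for the difference. The maintenance DNA methyltransferase Dnmt1 changed by -2.22, Dnmt3a by -0.81 and Dnmt3b by -4.74, the last to 2.23, 2.28 and 2.28 in adults. Among 16 other genes of histone acetylation 8 fell and 5 rose. The deacetylases Hdac1 (-3.59) and Hdac2 (-2.14) fell and Hdac11 rose (3.36). Of the 12 measured partners, paralogues and related genes of Kat6b, 8 fell and 2 rose in the mutants, with Kat6a at -0.68 and the scaffold Brpf1 at -0.89; Jade2, a scaffold of related acetyltransferase complexes, rose by 6.24. Of 6 measured fetal growth genes 4 fell in the mutants and 6 in the wild types, with none called for the difference. Of the 11 on the array, 5 did not pass the filter. Igf2bp1 and Igf2bp3, which bind RNA in embryonic tissue, stood at 10.01, 9.61 and 10.34 and at 10.13, 9.81 and 9.86 in embryos and at the floor or near it (2.19 and 2.49) in adults. Among 14 imprinted genes 9 fell and 4 rose, with Mest at -5.39 and Meg3 at 3.01.

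Genes of basic metabolism and translation were examined next. Of 33 ribosomal protein genes 30 fell (median -1.14), for example Rpl7 from 14.58, 14.58 and 14.52 to 12.68, 12.77 and 12.87. Of 47 respiratory chain genes 31 rose and 1 fell in the mutants (median 0.53), and 39 rose and 2 fell in the wild types (median 0.62). None of the 47 was called for the difference, as was so for all 11271 genes. The 95% interval of the difference lay within -1 to 1 for all 47, beside 78.9% of all genes. Of 18 glycolysis genes 11 rose and 5 fell. The neuronal enolase Eno2 rose by 8.86 and the hexokinase Hk1 by 3.82, whereas Hk2 fell by 5.07 on the log2 scale. Cholesterol synthesis genes fell in 12 of 16 cases, and Cyp46a1, which removes cholesterol from neurons, rose by 4.64.

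Regulators of RNA, the cytoskeleton and signalling changed by member. Of 28 splicing regulators 11 rose and 13 fell (39.3% and 46.4%), near the shares of all genes (39.6% and 41.9%). Rbfox1 rose by 6.65 and Msi1, the RNA-binding protein of stem cells, fell by 3.99 on the log2 scale. Ptbp1, a repressor of neuronal exons, changed by -3.81 on its brighter probe set. The change was 0.116 with no call (adjusted p = 0.643) where probe sets of the s, x and a types, so marked in their names, were left out. Of 24 microtubule and neurofilament genes 16 rose, Nefl by 9.36, while Tubb2b and Tubb6 fell by 2.88 and 5.02 on the log2 scale. Of 19 Wnt pathway genes 18 fell (median -3.27, wild types -3.11), the receptor Fzd8 to 3.52, 3.42 and 3.72 in adults (-6.53), and the secreted modulator Dkk3 rose by 4.05. Axon guidance genes divided, 12 of 43 higher and 18 lower (27.9% and 41.9%, beside 39.6% and 41.9% of all genes). Sema3e was at 4.95 and Efnb1 at -4.36. Among Sox factors 10 of 13 fell, Sox3 from 9.56, 9.57 and 10.35 to 2.19 in all adults, and Sox10 of oligodendrocytes rose by 2.24. In Ras and MAPK signalling, where 17 of 32 rose and 9 fell, the exchange factor Rasgrf1 reached 12.13, 12.01 and 12.08 in adults, a rise of 9.83. Further genes among the 10 largest rises were Thy1, a surface protein of neurons (10.71), Hpcal4 (10.23), Ptgds, which makes prostaglandin D (9.90), the exchange factor Kalrn (9.71), Diras2 (9.60) and Nrsn1 (9.45).

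**Figure D3:**
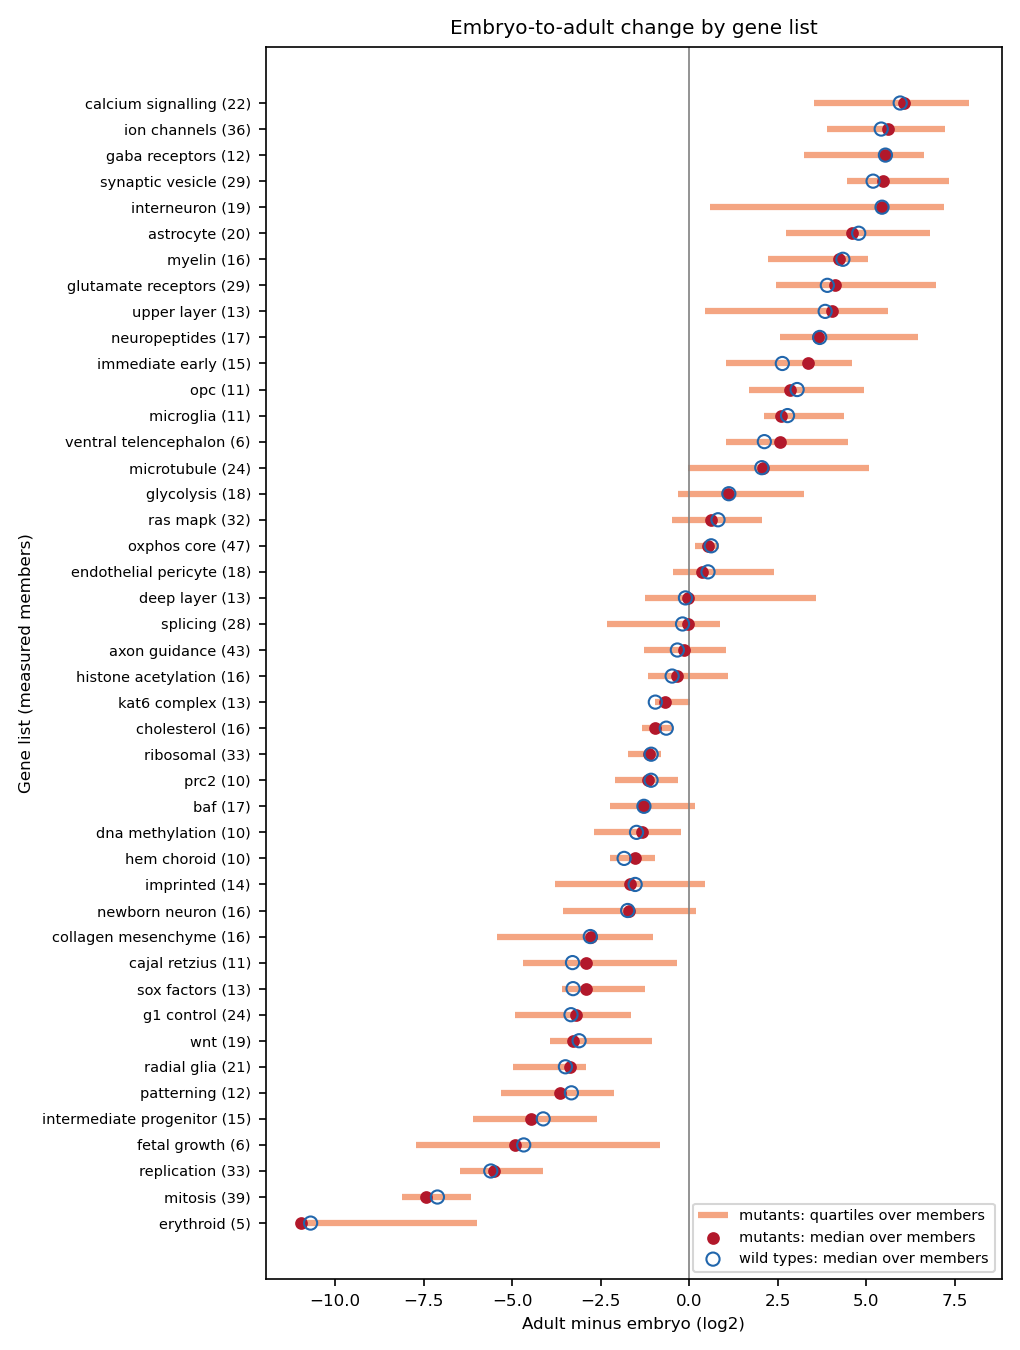
Median adult minus embryo difference (log2, x axis) over the measured members of each gene list (y axis, number of members in brackets) in Kat6b mutants (filled red) and wild types (open blue); orange bars are the quartiles over members in the mutants. The medians of the 2 genotypes lie within 0.727 of each other in each list with at least 5 measured members, from erythroid genes at -10.96 to calcium signalling genes at 6.07 in the mutants.

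The stage change itself differed between the genotypes past the test for 1 of 23101 probe sets (0.00433%), while 1283 (5.55%) had an unadjusted p under 0.05. That probe set was 1 of 3 for the interferon receptor subunit Ifnar2 and of the x type, which can cross-hybridise. It stood at 5.08, 5.12 and 5.28 in mutant embryos and 4.21, 3.98 and 4.03 in adult mutants. In wild types it stood at 5.81, 5.97 and 6.05 in embryos and 3.32, 3.52 and 3.42 in adults, so that the change was -1.09 in mutants and -2.52 in wild types. The difference was 1.43 (95% interval 1.08 to 1.78, adjusted p = 0.0473). On another probe set of the gene it was 0.92 (adjusted p = 0.89) and the brightest rose in both genotypes with a difference of 0.06 (adjusted p = 0.982). Under 22 other settings the adjusted p ran from 0.00289 to 1 and the call was kept under 6. Among fits that left out 1 array, it was kept only without mutant embryo 3. By representative probe set, 0 of 11271 genes were called by limma, and 578 had an unadjusted p under 0.05.

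A p that misses the threshold does not show that the genotypes changed alike, so the intervals of the difference were counted. The 95% interval lay within -1 to 1 on the log2 scale, that is within 2-fold of the wild-type change, for 17040 probe sets (73.8%) and for 8888 genes (78.9%). It did so for 4541 (72.2%) of the 6287 genes that changed by at least 2-fold in the mutants. The median width of an interval was 0.975 over genes. By list, the interval was this narrow for 38 of 39 mitosis genes, 26 of 33 replication genes, 18 of 21 radial glia genes and 18 of 29 synaptic vesicle genes. It was so for 1 of 17 neuropeptide and 3 of 15 immediate early genes. The mitosis genes averaged 3.30 to 3.41 on the adult arrays of both genotypes, near the floor of 2.19, where values have little spread. For genes near the floor in adults, a narrow interval thus reflects the floor in part and says little about the adults.

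The genes with the lowest p for the difference were described although none passed (adjusted p of 0.165 to 0.615). Ezh1 rose by 4.66 in mutants and 3.12 in wild types (difference 1.53, 95% interval 0.98 to 2.09, adjusted p = 0.165). Adult mutants (8.14, 7.92 and 8.10) differed from adult wild types by a mean of 0.136, and mutant embryos (3.40, 3.07 and 3.72) stood below wild-type embryos (4.94, 4.94 and 4.49) by -1.40. Jakmip1, a microtubule-binding protein of neurons, had the same form, with adult mutants at 9.09, 8.87 and 9.11, mutant embryos at 2.98, 3.40 and 3.56 and wild-type embryos at 4.81, 5.84 and 4.77 (difference 1.96, interval 1.13 to 2.78). So did Ube2ql1 (difference 1.07, interval 0.72 to 1.41). For Hkdc1, a hexokinase domain protein, the embryos of the genotypes overlapped (2.27, 2.27 and 2.32 in mutants, 2.27, 2.31 and 2.29 in wild types) and the adults did not, at 5.56, 5.95 and 5.48 in mutants and 4.69, 4.61 and 4.45 in wild types. Wnt7a, a ligand of the ventricular zone, fell less in mutants (-1.81) than in wild types (-2.92), with adult mutants at 5.86, 5.88 and 6.10 and adult wild types at 5.06, 5.19 and 5.06. Ovca2, Pm20d2 and Mxra7 complete the upper side, with differences of 1.06, 1.34 and 0.88. Other tested probe sets gave 0.40 and 0.78 for Jakmip1 (intervals -0.81 to 1.62 and -0.01 to 1.58) and 0.26 for Wnt7a (-0.87 to 1.40). With array weights, 6 of these 8 (Ezh1, Hkdc1, Mxra7, Ovca2, Ube2ql1 and Wnt7a) were called. Under no other setting was any of the 8 called, and they were picked by their p in these same data.

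On the lower side the mutant embryos had a higher mean than the wild-type embryos for all 8 genes on their brightest probe set. A second tested probe set did not follow this for Naaa (mutant embryos 4.34, 4.96 and 3.80, wild-type embryos 5.48, 4.36 and 4.64, difference 0.47 with an interval of -0.47 to 1.42) or for Grin3a (difference 0.06, interval -0.54 to 0.65). Naaa, a lysosomal amidase, stood at 4.55, 3.90 and 4.30 in mutant embryos and 2.85, 3.19 and 2.85 in wild-type embryos, and at 6.69, 6.79 and 6.96 and 6.79, 6.85 and 6.67 in the adults (difference -1.24, interval -1.76 to -0.73). Cyp2j9, a cytochrome P450, stood at 4.61, 5.29 and 5.31 and 3.67, 3.90 and 3.83 in the embryos, with a difference of -1.23. Grin3a, an NMDA receptor subunit, rose by 2.55 in mutants and 3.39 in wild types, and Unc13c, a synaptic priming protein, by 4.55 and 5.59. Drc1 and Tmem159 had differences of -1.14 and -0.97. Pecam1 was at 4.19 on all 6 adult arrays, so its difference of -0.73 rests on the embryos. The 3 genes called in opposite directions were Comtd1 (-0.32 in mutants, 0.68 in wild types), Pm20d2 (0.53 and -0.81) and Nrde2 (0.28 and -0.27), none called for the difference. The mutant call of Comtd1 was lost without adult mutant 2, without mutant embryo 3 and without each wild-type array, and that of Pm20d2 without adult mutant 1, adult mutant 3 or mutant embryo 1. Nrde2 was chosen after its values were seen.

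**Figure D4:**
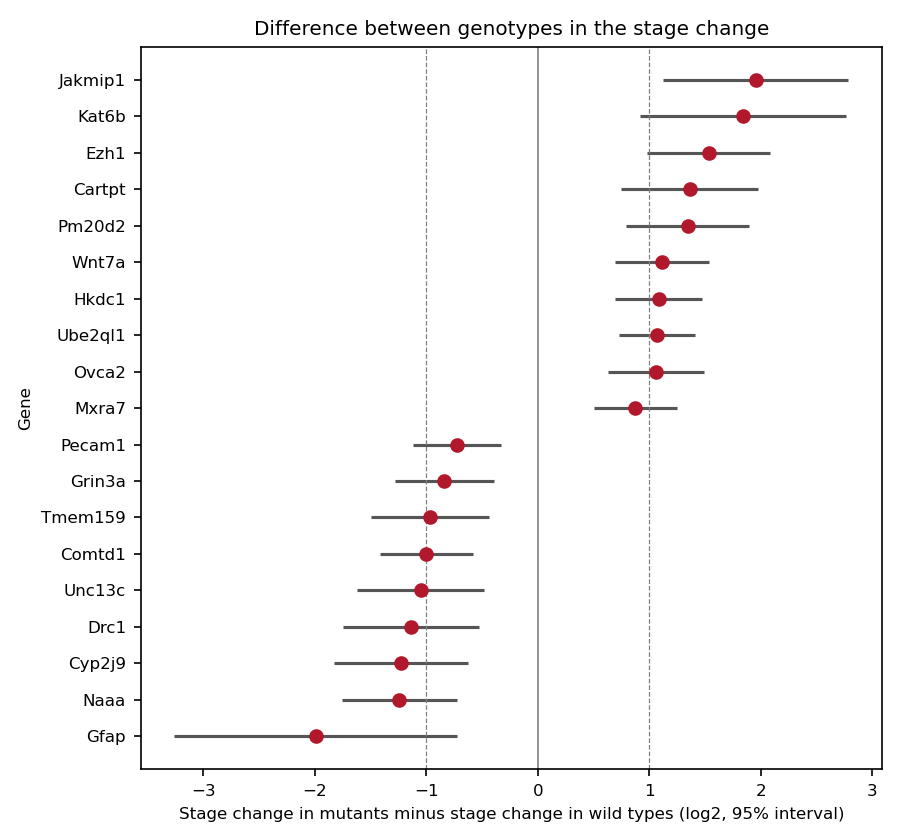
Stage change in mutants minus stage change in wild types (log2, x axis) with its 95% interval for the 8 genes of lowest p in each direction and for Kat6b, Gfap and Cartpt (y axis); dashed lines mark -1 and 1. All intervals shown leave out 0, none of the genes passed the test over all probe sets, and Jakmip1 (1.96) and Gfap (-1.99) lie at the ends.

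The ratio of mutant to wild-type change left the range of 0.5 to 1.5 for 5 of 3436 genes. It was 0.45 for Ltbp1, which binds latent TGF-beta and fell by 0.90 on the log2 scale in the mutants and changed by -2.01 in the wild types. It was 0.468 for Rab27a, a GTPase of secretory vesicles (1.02 and 2.19). It was 1.52 for Jakmip1, 1.60 for the synaptotagmin Syt3 (3.23 and 2.02) and 1.61 for the neuropeptide Cartpt. Cartpt was at 5.95, 5.93 and 5.57 in adult mutants and 4.62, 4.80 and 3.91 in adult wild types, with embryos of both genotypes near the floor. These 5 were chosen by their values, and none passed the test of the difference (adjusted p of 0.33 to 0.917).

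Calls in the mutants alone were small at the median. There were 538 such genes with a median size of 0.494 on the log2 scale, and 487 were called in the wild types alone with a median of 0.51. Of the 538, 46 changed by at least 2-fold, 45 of them with the same sign in the wild types, and 0 were called for the difference by limma. The largest change among them was -2.60, for Alas2.

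Probe sets of a gene did not always move together. Among 5106 genes with at least 2 tested probe sets, 114 (2.23%) had 1 called higher and another called lower by at least 2-fold each in the mutants, and 111 did in the wild types. The 2 groups shared 88 genes, which is 77.2% of the mutant and 79.3% of the wild-type group. Map4, a microtubule-binding protein, had 1 probe set that rose from 6.23 to 12.28 and another that fell from 5.67 to 3.62 (group means of 3 mutant arrays). Kif1b, a kinesin of vesicle transport, had 4 probe sets that rose, by up to 2.72, and 3 that fell, the widest from 8.65 to 3.62. For Septin11, a cytoskeletal GTPase, 2 probe sets rose, by up to 3.40, and 2 changed by -3.30 and -3.99. Tmod3, a tropomodulin that caps actin filaments, rose by 4.53 on 1 probe set and changed by -2.23 to -2.73 on the other 3. Asph showed changes of 5.59 and -1.55 and Zwint, a kinetochore protein, of 1.99 and -4.69. The probe sets of a gene read different stretches of its transcripts, and which transcripts these were was not measured. For such genes a single value does not describe the change.

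**Figure D5:**
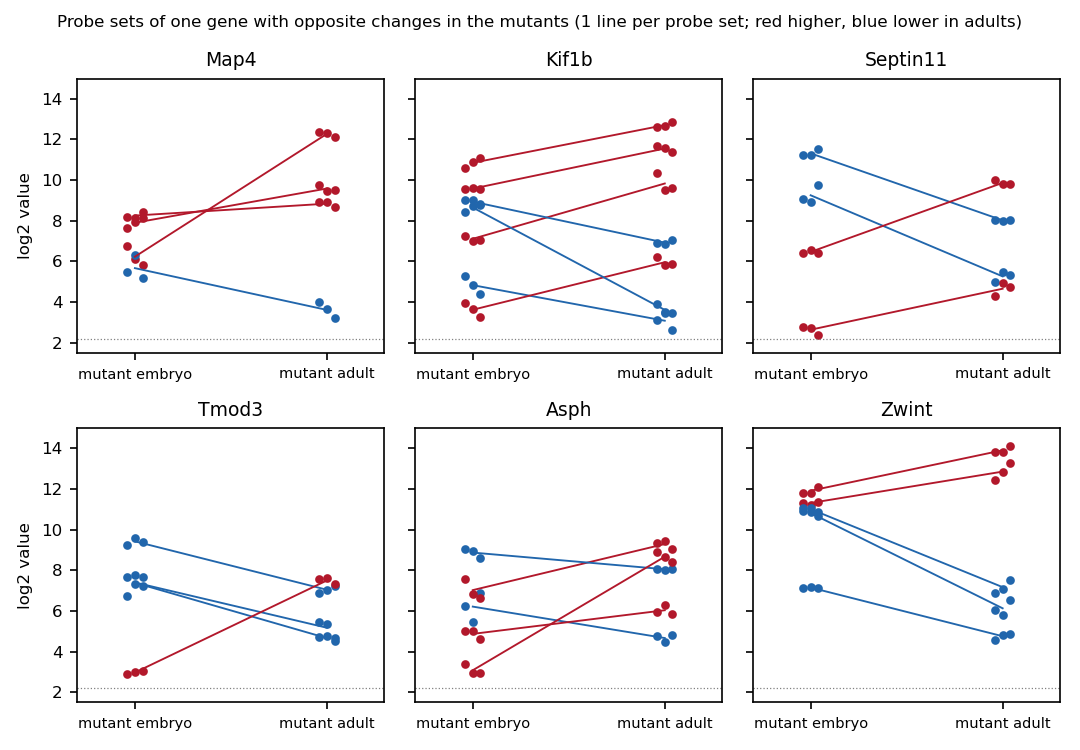
Log2 values (y axis) of every tested probe set of 6 genes in the 3 mutant embryos and 3 adult mutants (x axis); lines join the means of a probe set, red where it was higher and blue where it was lower in the adults. In each panel red and blue lines cross or run apart, as for Map4 with 12.28 and 3.62 in the adults.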

How the data were processed

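RNA of 12 samples was measured on Affymetrix arrays after 2 rounds of amplification. The authors deposited log2 values per probe set, and GCRMA (a background model from probe sequence; no version given) is named per the submitters' processing notes. These values were used as deposited. Of 45101 probe sets, 64 were controls, 34945 had 1 gene symbol, 932 several and 9160 none listed; 34741 symbols were taken from the RefSeq table of GRCm38.p6 by gene ID. Probe sets with several or no genes (3354 of those tested) entered the tests and are not named.

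Groups came from the titles. limma (version 3.58.1 in R 4.3.3; lmFit and eBayes) was fitted over all 12 arrays with 4 group means and no covariate. P-values were adjusted by Benjamini-Hochberg over the 23101 probe sets, and values under 0.05 were called. All adjusted p-values are limma's, intervals are 95% intervals, and SE are moderated. The scripts were tested on simulated data. Named are all Kat6b probe sets, the 10 largest rises and falls, the first 3 members and the extremes of each of 46 gene lists, the 8 genes of lowest p for the difference each way, and 6 genes with opposing probe sets. The members and lists were chosen with earlier results of these data known. Alternatives varied the filter, scaling, variance model, array weights, blocks by cross or age, probe set choice, threshold and each array in turn. Leaving out both embryos of the first cross was added after the data were seen.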

Additional observations from a re-analysis of the deposited data

Results flagged for a closer look

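The stage change of 1 probe set of Ifnar2 differed between the genotypes by the test of the difference itself. This probe set is of the x type, which can cross-hybridise, and its values were low, from 3.32 to 6.05. The log2 change from embryo to adult in mutants minus that in wild types was 1.43 (95% interval 1.08 to 1.78, limma's adjusted p = 0.0473). In each stage the 3 mutant arrays lay on one side of the 3 wild-type arrays, above them in adults and below them in embryos. The brightest probe set of the gene gave a difference of 0.06 (-0.53 to 0.65).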

How the results depend on the processing

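The number of probe sets called for the difference of the stage changes, 1 as reported, was 15 without a filter, 5 with the filter over all 12 arrays, 2 with median centring, 2 with the cross or age pair as a random block and 16 with array weights. Of the 15, 10 lay outside the filter over the mutant arrays, as did 3 of the 5. Among these 3 was the second Kat6b probe set, which is given no test above. It passes that filter only through the wild-type embryos, the group where it is high, so its call is not read as a result. The number called was 0 with quantile normalization, a filter at log2 over 6, trend and robust variance, the age or cross pair as a fixed block, without the s, x and a probe set types, with probe sets averaged per gene and with treat at a log2 of 1. The filter at log2 over 6 and the setting without the s, x and a types left out the Ifnar2 probe set itself. The number called was 0 to 2 over fits that left out 1 array each (2 without mutant embryo 1 and without mutant embryo 3), and 3 without both embryos of the first cross. Ipo7, named after its values were seen, was the second call with median centring and with the random block. Its probe set stood at 4.52, 4.78 and 5.14 in the mutant embryos and between 3.098 and 3.315 on all other arrays. It thus passes the filter only through the group where it is high, and its difference of -1.58 is given no test here. On the brighter probe sets of Ipo7 the difference was 0.396 (interval -0.0256 to 0.817) and -0.12 (-0.465 to 0.225). Intervals within -1 to 1 numbered 35670 without a filter and 9356 with gene means, which test more and fewer features. Averaging per gene gave 4396 higher and 4870 lower calls in mutants and 4314 and 4929 in wild types, over fewer features. Treat at a log2 of 1 gave 4830 and 4966 in mutants and 4656 and 5100 in wild types. Leaving out 1 array gave 7997 to 8345 higher and 9577 to 9977 lower calls in mutants.

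Signs turned for Ptbp1 (0.116) and for the median of the glycolysis list (-0.24) without the s, x and a types, and with gene means for Mbd2 (-0.38), Robo1 (0.331) and Araf (-0.0181); the cause was not tested. The labels share no replicate numbers between groups, but mutants and wild types could be paired by age in adults and by cross in embryos; these pairs are the blocks above, which gave 0 calls for the difference as a fixed block and 2 as a random one. With 3 arrays a group, most intervals of the difference span about 1 on the log2 scale. Where both stages lie near the floor, a change cannot be measured.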
